A study of Homo sapiens with 9 samples.

Results

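The genes analysed here were the nuclear-encoded subunits of oxidative phosphorylation, chosen by gene symbol from the protein-coding genes of the table (the NDUFA, NDUFB, NDUFC, NDUFS and NDUFV series, SDHA to SDHD, the UQCR genes and CYC1, the COX4 to COX8 genes, and the ATP5F1, ATP5M and ATP5P genes). The rule uses no expression value, but it was set with earlier results of these data known. The rule found 88 genes among 24344, with 37 in complex I, 4 in complex II, 10 in complex III, 19 in complex IV and 18 in complex V, after NDUFA4 and NDUFA4L2 had been placed with complex IV. Of these, 82 passed the filter on low counts and were tested, and the 6 that did not pass are described with their isoform pairs.

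Expression was measured by RNA sequencing in the human breast cancer cell line MDA-MB-231, which is established from an adenocarcinoma, after 48 h of treatment. CKI (Compound Kushen Injection, an extract that combines Kushen with Baituling) was given at 2.0 mg/mL, and the Kushen injection and the Baituling injection were each given at the amount that matches this CKI dose. Each treatment had 3 libraries, all from this single line and with no genetic change named in the labels, and nothing in the labels says that the 3 came from separate cultures, so p-values measure the spread between these libraries only. Untreated cells were not analysed here, so every direction below is between 2 treatments. In bulk RNA, fewer cells of a type and less RNA per cell cannot be told apart.

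Oxidative phosphorylation is carried out in the inner mitochondrial membrane. Complexes I and II pass electrons to coenzyme Q, complex III passes them on to cytochrome c, and complex IV hands them to oxygen, while complexes I, III and IV pump protons. Complex V, the ATP synthase, lets the protons back through a ring of c subunits whose rotation drives ATP production in the F1 head. Complexes I, III, IV and V also contain subunits encoded by mitochondrial DNA, for which 0 of 13 genes were in the table used, so they are not analysed here.

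Transcription factors known for binding near the start sites of these genes include nuclear respiratory factor 1 (NRF1) and the ETS factor GABP. The 250 bases upstream of the start site, from RefSeq on GRCh38.p14, could be matched for 68 of the 82 tested subunits. Both strands were searched for the core motif of NRF1, for CCGGAAG (ETS) and for AAGATGGCG (YY1), which do not contain each other. The NRF1 letters were in 14 of 68 subunit promoters (20.6%), in 10.2% of the promoters of tested genes and in 7.65% of all promoters of the same length. The ETS letters were in 17 of 68 (25%), against 15.5% and 11.8%, and the YY1 letters in 1 of 68 (1.47%), against 1.05% and 0.751%. The last 200 bases before the start site are shown for 7 subunits that stand for the patterns described below, with the matched letters in capitals. NDUFA9 and UQCRFS1 carried the NRF1 letters and NDUFB7 and COX8A the ETS letters, and all 4 were lower in CKI and Kushen than in Baituling, UQCRH carried the ETS letters and was higher in CKI than in Baituling, and ATP5MC1 and COX7B carried none of these letters and moved in opposite directions against Baituling. All are read 5′ to 3′ on the strand of the gene.
NDUFA9 (chr12:4648914-4649113, plus strand): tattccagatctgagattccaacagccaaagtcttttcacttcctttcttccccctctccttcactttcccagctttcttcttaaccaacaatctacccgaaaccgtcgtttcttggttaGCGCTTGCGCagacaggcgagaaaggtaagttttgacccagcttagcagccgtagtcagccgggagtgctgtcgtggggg
UQCRFS1 (chr19:29213152-29213351, minus strand): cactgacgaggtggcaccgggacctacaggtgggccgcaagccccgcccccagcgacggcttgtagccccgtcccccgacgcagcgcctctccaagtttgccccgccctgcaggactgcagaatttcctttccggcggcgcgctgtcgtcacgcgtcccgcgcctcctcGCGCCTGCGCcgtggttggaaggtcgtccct
NDUFB7 (chr19:14572067-14572266, minus strand): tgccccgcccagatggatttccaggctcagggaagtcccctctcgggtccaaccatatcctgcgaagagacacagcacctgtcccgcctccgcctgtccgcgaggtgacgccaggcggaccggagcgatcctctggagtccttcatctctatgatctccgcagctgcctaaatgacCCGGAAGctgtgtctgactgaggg
COX8A (chr11:63974420-63974619, plus strand): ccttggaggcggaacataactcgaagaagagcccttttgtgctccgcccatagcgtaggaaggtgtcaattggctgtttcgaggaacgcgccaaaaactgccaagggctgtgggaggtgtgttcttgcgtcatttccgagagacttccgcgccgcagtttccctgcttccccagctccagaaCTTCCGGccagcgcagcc
UQCRH (chr1:46303498-46303697, plus strand): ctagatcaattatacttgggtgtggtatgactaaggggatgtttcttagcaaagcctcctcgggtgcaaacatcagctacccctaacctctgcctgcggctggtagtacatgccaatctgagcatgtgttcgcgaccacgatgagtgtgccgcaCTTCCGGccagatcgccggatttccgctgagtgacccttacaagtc
ATP5MC1 (chr17:48892587-48892786, plus strand): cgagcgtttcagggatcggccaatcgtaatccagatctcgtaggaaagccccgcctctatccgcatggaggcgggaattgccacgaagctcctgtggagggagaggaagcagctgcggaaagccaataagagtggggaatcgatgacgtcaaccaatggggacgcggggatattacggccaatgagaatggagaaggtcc
COX7B (chrX:77899268-77899467, plus strand): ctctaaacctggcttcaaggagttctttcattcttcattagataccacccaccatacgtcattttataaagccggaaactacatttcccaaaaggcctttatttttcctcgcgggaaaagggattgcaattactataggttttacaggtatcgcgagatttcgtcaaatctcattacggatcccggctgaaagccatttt

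A match to these letters is a description of the window only. Of the 14 subunits with the NRF1 letters, 10 were lower and 0 higher in CKI than in Baituling (median log2 fold change -0.28), and of the 54 without them 35 were lower and 9 higher (median -0.28). For the ETS letters the counts were 10 lower and 2 higher of 17 with them (median -0.21) and 35 lower and 7 higher of 51 without (median -0.32). In Kushen against Baituling, 10 of the 14 with the NRF1 letters were lower and 0 higher, and 27 of the 54 without were lower and 9 higher.

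Total counts ran from 22830700 to 23556823 for CKI libraries, from 22023427 to 23782071 for Kushen libraries and from 20144628 to 23367960 for Baituling libraries. Levels are given as CPM, counts relative to library sizes that were scaled by TMM (a factor taken from the bulk of genes), and differences as log2 fold changes between the first and the second treatment named, from edgeR's quasi-likelihood test with Benjamini-Hochberg adjustment over 14195 genes. A gene passed the test at an adjusted p under 0.05, and was past the fold threshold if its log2 fold change was also above 1 or below -1. The TMM factors of CKI were 1.08 to 1.10, those of Kushen 1.02 to 1.05 and those of Baituling 0.877 to 0.899. With library totals in their place, the median log2 fold change of all tested genes shifted upward, by 0.08 for CKI against Kushen, by 0.29 for CKI against Baituling and by 0.21 for Kushen against Baituling. Directions against Baituling are therefore relative to the bulk of genes, and those that held under 3 scalings (TMM, upper quartile and library totals) are named as such. The line's mesenchymal markers were present (the mean level of VIM was 351 CPM in CKI, 584 CPM in Kushen and 2069.5 CPM in Baituling), ESR1 and PGR lay at or below a mean of 0.09 CPM, and PTPRC, CD3E and CD68 at or below 0.28 CPM in each group.

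Relative to the bulk of genes, subunit transcripts were lower in CKI and in Kushen than in Baituling, while their unscaled shares of all counts overlapped between the groups. In CKI against Baituling, 56 of 82 subunits were lower (68.3%; 37% of all tested genes) and 10 were higher (12.2%; 39.1% of all tested genes). In Kushen against Baituling, 47 were lower (57.3%; 36.1% of all genes) and 10 were higher (12.2%; 35.6% of all genes). In CKI against Kushen, 16 were lower (19.5%; 20.2% of all genes) and 5 were higher (6.10%; 19.6% of all genes). In both directions together 80.5% of subunits passed in CKI against Baituling (76.1% of all genes), and Kushen against Baituling gave 69.5% (71.6% of all genes). The median log2 fold change of the subunits was -0.29, -0.19 and -0.07 in these 3 comparisons, against 0.03, 0.02 and 0.01 for all genes tested. The comparisons against Baituling share the Baituling libraries, so their counts are not independent of each other.

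With library totals as the scale the same counts became 29 lower and 30 higher in CKI against Baituling. In Kushen against Baituling they were 32 lower and 34 higher, and in CKI against Kushen 8 lower and 16 higher. The subunit medians were then 0.00037, 0.03 and 0.01, against 0.32, 0.23 and 0.08 for all genes tested. A change of scale moves all genes by nearly the same amount. The gap between subunits and all genes therefore could not change with it, and its presence here adds nothing. The library-total counts by complex given below are on this same scale. Over all genes, library totals gave 3210 lower and 8094 higher in CKI against Baituling. The matching counts over all genes for the other comparisons, and for calls kept under all 3 scalings, are not given. The subunit counts there, and those by complex, are therefore not set against a share of all genes. Under all 3 scalings, 29 of the 56 lower and all 10 of the higher calls in CKI against Baituling remained, 32 of the 47 lower and all 10 of the higher in Kushen against Baituling, and 8 of the 16 lower and all 5 of the higher in CKI against Kushen. Library totals moved the median of all genes upward in every comparison, and upper quartile did so against Baituling. Higher calls were therefore favoured to remain, and that they did so adds little. The unscaled share of counts that came from the 88 genes lay between 1.04% and 1.05% for CKI, between 1.01% and 1.08% for Kushen and between 1.02% and 1.08% for Baituling, so the 3 groups overlapped. Summed TMM-scaled levels were 9429 to 9785 CPM in CKI, 9897 to 10334 CPM in Kushen and 11376 to 12336 CPM in Baituling, without overlap.

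**Figure D1:**
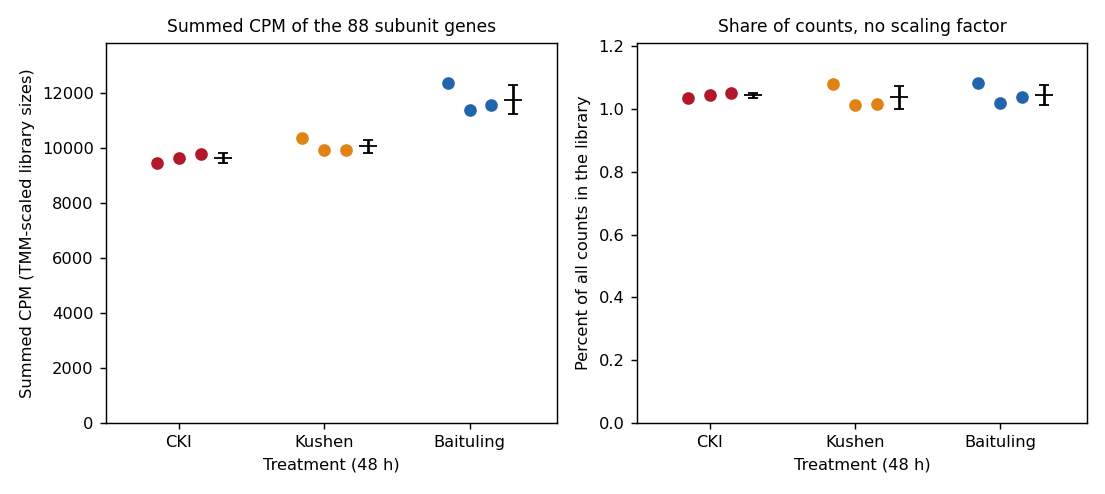
Summed level of the 88 subunit genes in each of 9 libraries, as CPM with TMM-scaled library sizes (left) and as an unscaled percent of all counts (right), with the mean and SD of 3 libraries beside each group. The scaled sums of Baituling (11376 to 12336 CPM) lie above those of the other groups, while the unscaled shares overlap between 1.01% and 1.08%.

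Libraries of 2 groups did not overlap for 58 subunits that were below and 9 that were above in CKI against Baituling (38% and 40.3% of all tested genes). In Kushen against Baituling the counts were 43 below and 9 above (36.7% and 36.4% of all genes), and in CKI against Kushen 28 below and 9 above (24.2% and 25.2%). Ranked by mean CPM, 40 of 82 subunits followed the order CKI, Kushen, Baituling from lowest to highest (48.8%), an order taken by 25.7% of all tested genes. The opposite order was taken by 9 subunits (11%) and by 28.4% of all genes. These orders rest on the TMM scale.

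**Figure D2:**
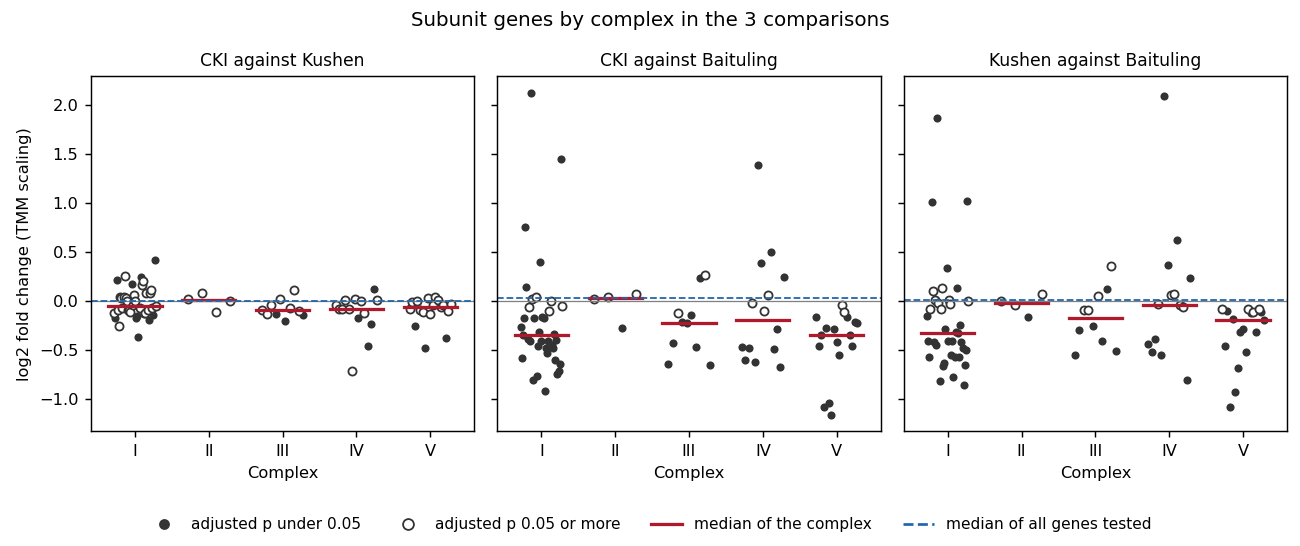
Log2 fold change (TMM scaling) of the 82 tested subunits by complex in the 3 comparisons, with filled points past an adjusted p of 0.05, red lines at the median of a complex and a dashed line at the median of all genes. Against Baituling the medians of complexes I and V lie at -0.34 in CKI. With library totals both medians are -0.06, against 0.32 for all genes tested.

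Few subunits moved by more than a factor of 2. In CKI against Baituling, 3 were past the fold threshold downward (7.91% of all genes) and 3 upward (11.2%). In Kushen against Baituling these were 1 downward (6.73%) and 4 upward (8.5%), and in CKI against Kushen 0 in either direction (0.197% and 1.7%), where 21 subunits passed the adjusted p alone and DESeq2 gave 22. All 3 that fell past it were ATP synthase genes, and every one that rose past it had a mean under 5 CPM over the 9 libraries. Among the 77 subunits with a mean of at least 5 CPM, log2 fold changes ran from -1.16 to 0.51 in CKI against Baituling, from -1.08 to 0.63 in Kushen against Baituling and from -0.48 to 0.25 in CKI against Kushen.

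Complex I, NADH dehydrogenase, is the entry point for electrons from NADH, and its 7 nuclear-encoded core subunits hold the flavin and iron-sulfur centres. In CKI against Baituling, 26 of 37 complex I genes were lower and 5 higher (median log2 fold change -0.34), and in Kushen against Baituling 23 were lower and 5 higher (median -0.33). With library totals these were 13 lower and 12 higher, and 18 lower and 14 higher. Among the core subunits, NDUFS3, NDUFS7, NDUFS8 and NDUFV1 were lower under all 3 scalings in both comparisons.

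NDUFS7, which carries the last iron-sulfur centre before coenzyme Q, was at 43.8, 42.9 and 44.3 CPM in CKI, 37.3, 41.8 and 41.8 CPM in Kushen and 78.4, 71.0 and 69.1 CPM in Baituling. Exons of genes on the opposite strand cover 51.3% of its main transcript, and their part in its counts was not tested. The 3 Baituling libraries lay far above the other 6, and CKI and Kushen did not overlap although the difference between them did not pass (log2 fold change 0.12 ± 0.06 (SE), adjusted p = 0.130). Kushen was lower than Baituling (log2 fold change -0.86 ± 0.06 (SE), adjusted p = 1.21e-10), the largest fall in complex I in that comparison, and CKI was lower too (log2 fold change -0.74 ± 0.06 (SE), adjusted p = 6.93e-10). NDUFS8, an iron-sulfur subunit next to it, was at 91.0, 95.7 and 96.4 CPM in CKI, 92.3, 99.7 and 105 CPM in Kushen and 169, 146 and 149.7 CPM in Baituling. Its CKI and Kushen libraries overlapped, and both groups were lower than Baituling (log2 fold changes -0.71 and -0.65). NDUFV1, which binds NADH and the flavin, was at 128, 125 and 123 CPM in CKI, 135, 137 and 144 CPM in Kushen and 204, 186 and 195 CPM in Baituling. All 3 groups were apart, in the order CKI, Kushen, Baituling, with CKI against Baituling at a log2 fold change of -0.64 and CKI against Kushen at -0.14, a difference that did not pass with library totals (-0.07, adjusted p = 0.218) or without CKI replicate 2 (adjusted p = 0.0601) or 3 (adjusted p = 0.0568).

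NDUFS1, the largest core subunit, did not follow these 3. It was at 102, 96.1 and 103 CPM in CKI, 112, 113 and 106 CPM in Kushen and 94.8, 106 and 99.3 CPM in Baituling, and it was highest in Kushen by its mean. Kushen was higher than Baituling (log2 fold change 0.14 ± 0.05 (SE), adjusted p = 0.0182) although the libraries overlapped, a call lost without Kushen replicate 2 (adjusted p = 0.0663), Baituling replicate 1 (0.0749) or Baituling replicate 3 (0.0591), and CKI and Baituling overlapped (log2 fold change 0.0048 ± 0.05 (SE), adjusted p = 0.934). This gene turned to lower under a correction for transcript length and GC content, at -0.29 in CKI against Baituling and -0.14 when Kushen was compared with Baituling. NDUFS3, in the arm that leads to coenzyme Q, was lower than in Baituling in CKI (log2 fold change -0.48) and in Kushen (-0.56).

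Of the 30 supernumerary subunits, which surround the core, 21 were lower and 4 higher in CKI against Baituling (median -0.32), and 18 were lower and 3 higher in Kushen against Baituling (median -0.30). With library totals these were 8 lower and 10 higher, and 13 lower and 12 higher. NDUFB7, a small subunit of the membrane arm on the intermembrane side, was at 70.8, 64.6 and 79.7 CPM in CKI, 92.7, 93.1 and 91.4 CPM in Kushen and 149, 125 and 132 CPM in Baituling. The 3 groups did not overlap, and NDUFB7 showed the largest fall in complex I both in CKI against Baituling (log2 fold change -0.92 ± 0.07 (SE), adjusted p = 2.23e-10) and in CKI against Kushen (log2 fold change -0.37 ± 0.07 (SE), adjusted p = 0.000270). Both falls held under all 3 scalings.

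NDUFA9, which sits near the coenzyme Q site, was at 8.59, 9.83 and 10.2 CPM in CKI, 9.54, 8.90 and 10.2 CPM in Kushen and 17.7, 15.2 and 17.1 CPM in Baituling. Its CKI and Kushen libraries overlapped, and both lay below Baituling (log2 fold changes -0.81 and -0.81), a direction and call that held under all 3 scalings. NDUFB10, another subunit of the membrane arm, was lower in both too (-0.76 and -0.66), as was NDUFS5, the subunit with the highest level per kilobase of transcript (691 CPM per kilobase over all groups), at -0.60 and -0.41. NDUFB9, a membrane-arm subunit, was at 25.8, 27.0 and 26.2 CPM in CKI, 23.1, 20.8 and 22.7 CPM in Kushen and 41.3, 35.2 and 37.3 CPM in Baituling, and it was the largest rise in CKI against Kushen among complex I genes of at least 5 CPM (log2 fold change 0.25 ± 0.07 (SE), adjusted p = 0.00748), while both groups lay below Baituling. 

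NDUFB3, another membrane-arm subunit, went the other way. It was at 66.1, 67.2 and 67.0 CPM in CKI, 71.4, 61.1 and 59.3 CPM in Kushen and 52.8, 47.6 and 51.0 CPM in Baituling. Every CKI and Kushen library lay above every Baituling library, and NDUFB3 was the largest rise in complex I at 5 CPM or more (log2 fold change 0.40 ± 0.06 (SE), adjusted p = 9.75e-06 in CKI and log2 fold change 0.34 ± 0.06 (SE), adjusted p = 7.81e-05 in Kushen). On the TMM scale NDUFA5, NDUFA8, NDUFB1 and NDUFV3 passed in none of the 3 comparisons. Their log2 fold changes in CKI against Baituling were -0.06, 0.02, 0.05 and -0.04. With library totals each passed as higher than in Baituling, at 0.23, 0.31, 0.33 and 0.24 in CKI and 0.22, 0.20, 0.35 and 0.21 in Kushen. NDUFB1 also passed in Kushen against Baituling with upper-quartile scaling (0.20, adjusted p = 0.0216).

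A group of complex I genes rose from very low counts. NDUFV2, the core subunit that pairs with NDUFV1, had 130, 121 and 117 counts in CKI, 85, 94 and 81 in Kushen and 31, 36 and 34 in Baituling, with all 3 groups apart. Its log2 fold change was 1.45 ± 0.16 (SE) in CKI against Baituling, 1.02 ± 0.17 in Kushen against Baituling and 0.42 ± 0.13 in CKI against Kushen, the last no longer passing with DESeq2 (adjusted p = 0.0881) or without CKI replicate 1 (adjusted p = 0.0587) or Kushen replicate 1 (adjusted p = 0.0556). NDUFA7, a supernumerary subunit, had 21, 12 and 15 counts in CKI, 15, 15 and 8 in Kushen and 3, 1 and 4 in Baituling, with log2 fold changes of 2.13 ± 0.51 and 1.87 ± 0.54 against Baituling. NDUFA13, also supernumerary, had 50, 58 and 30 counts in CKI, 70, 34 and 52 in Kushen and 19, 19 and 23 in Baituling. Its Kushen libraries lay above Baituling (1.01 ± 0.30), and CKI passed too, with overlap (0.76 ± 0.31), a call that limma voom (adjusted p = 0.0682), DESeq2 (adjusted p = 0.0599) and the omission of CKI replicate 1 or 2 or Baituling replicate 1 or 2 (adjusted p up to 0.157, without CKI replicate 2) each ended. The annotated main transcripts of NDUFV2 and NDUFA13 share 90.0% and 83.9% of their bases with exons of another gene on the same strand. That of NDUFA7 shares 77.9% with exons of other genes, counted over the same and the opposite strand. Subunits with a mean of at least 5 CPM overlap other genes too, among them SDHA (69.4%) and NDUFA11 (68.2%) on the same strand and NDUFB8 (72.0%) on both together. The part of overlap in the low counts of NDUFV2, NDUFA13 and NDUFA7 was not tested.

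Complex II, succinate dehydrogenase, links the tricarboxylic acid cycle to coenzyme Q and has no subunit from mitochondrial DNA. Of its 4 genes, 0 were higher and 1 lower against Baituling in both comparisons, and in CKI against Kushen their adjusted p lay between 0.111 and 0.993. The summed level was 493 to 518 CPM in CKI, 493 to 509.8 CPM in Kushen and 495 to 520.4 CPM in Baituling, so the groups overlapped. SDHA, the flavoprotein that oxidises succinate, was at 245, 241 and 256 CPM in CKI, 238, 251 and 243 CPM in Kushen and 247, 242 and 242 CPM in Baituling, and its groups overlapped (log2 fold change 0.02 ± 0.04 (SE), adjusted p = 0.629). SDHC, a membrane anchor, was at 67.6, 76.7 and 75.04 CPM in CKI, 77.7, 80.6 and 77.7 CPM in Kushen and 88.9, 84.3 and 91.0 CPM in Baituling, with the 3 groups apart. It was lower in CKI than in Baituling (log2 fold change -0.27 ± 0.05 (SE), adjusted p = 0.000109) and in Kushen (log2 fold change -0.16), and both turned to slightly positive values with library totals (0.02 and 0.05), the call in Kushen being lost with upper-quartile scaling too (adjusted p = 0.105). SDHB, the iron-sulfur subunit, and SDHD, the other anchor, did not pass in any comparison on the TMM scale (log2 fold changes of 0.04 and 0.08 in CKI against Baituling). With library totals 3 of the 4 genes were higher in both comparisons against Baituling. Without any scaling, complex II made up 5.22% ± 0.07 (SD) of the subunit counts in CKI, 4.97% ± 0.17 in Kushen and 4.30% ± 0.07 in Baituling, with the CKI and Kushen libraries all above the Baituling libraries. With 3 libraries in each group the exact permutation p has a floor of 0.1, so none is given for this share.

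Complex III, the cytochrome bc1 complex, had 7 of 10 genes lower and 1 higher in CKI against Baituling (median -0.22), and 5 lower and 1 higher in Kushen against Baituling (median -0.17). With library totals these were 4 lower and 4 higher, and 3 lower and 4 higher. CYC1, the haem subunit that hands electrons to cytochrome c, was at 275, 303 and 308 CPM in CKI, 291, 327 and 325 CPM in Kushen and 497, 438 and 442 CPM in Baituling. The CKI and Kushen libraries overlapped, and all 6 lay below Baituling (log2 fold change -0.64 ± 0.06 (SE), adjusted p = 4.55e-09 in CKI, log2 fold change -0.55 ± 0.06 (SE), adjusted p = 5.10e-08 in Kushen). UQCRFS1, the Rieske iron-sulfur protein, was at 77.4, 74.1 and 81.2 CPM in CKI, 81.4, 81.7 and 80.2 CPM in Kushen and 111, 102 and 108 CPM in Baituling. It was lower in both (log2 fold changes -0.46 and -0.40), and like CYC1 it was lower under all 3 scalings in both comparisons. UQCRQ, a small subunit at the coenzyme Q site, was the largest fall in complex III in CKI against Baituling (log2 fold change -0.65 ± 0.05 (SE), adjusted p = 1.15e-09), from 229 ± 21.7 CPM (SD, n = 3) in Baituling to 146 ± 1.69 CPM (SD, n = 3) in CKI.

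The core proteins UQCRC1 and UQCRC2, which form the matrix side of complex III, moved less. UQCRC1 was lower than in Baituling in both CKI (log2 fold change -0.22) and Kushen (-0.25) on the TMM scale. Neither UQCRC1 call held with library totals (0.06 and -0.04, adjusted p = 0.161 and 0.421) or with the length and GC offset (-0.0064 and -0.02, adjusted p = 0.877 and 0.600). UQCRC2 was lower in CKI than in Baituling (-0.14), a fall that was lost without CKI replicate 1 (adjusted p = 0.0539) and with upper-quartile scaling (adjusted p = 0.171) and became a rise of 0.15 with library totals. UQCRC2 was also lower in CKI than in Kushen (log2 fold change -0.20 ± 0.04 (SE), adjusted p = 0.00160), with libraries at 84.2, 88.6 and 89.4 CPM in CKI, 104, 97.6 and 99.4 CPM in Kushen and 96.1, 99.1 and 93.8 CPM in Baituling, so Kushen was the highest group by its mean. UQCRH, the hinge protein beside CYC1, was at 294, 296 and 297 CPM in CKI, 291, 265 and 263 CPM in Kushen and 267, 238 and 246 CPM in Baituling and was higher in CKI than in Baituling (log2 fold change 0.24 ± 0.05 (SE), adjusted p = 0.000199), without overlap. UQCRHL, a retrocopy of UQCRH, had a mean of 1.79 ± 0.268 CPM (SD, n = 3) in CKI and passed in no comparison on the TMM scale. With library totals it was higher against Baituling in CKI (0.56, adjusted p = 0.0299) and in Kushen (0.58, adjusted p = 0.0263). How the authors' counting split reads between UQCRH and UQCRHL is not given in the sources used here.

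Complex IV, cytochrome c oxidase, had members on both sides. Of its 14 tested genes, 7 were lower and 4 higher in CKI against Baituling (median -0.19), and 5 were lower and 4 higher in Kushen against Baituling (median -0.03). With library totals these were 6 lower and 7 higher, and 5 lower and 9 higher. COX8A, the ubiquitous form of the smallest subunit, was at 139.7, 142 and 148 CPM in CKI, 136, 125 and 131 CPM in Kushen and 238, 220.4 and 224 CPM in Baituling. It showed the largest fall of the complex against Baituling in CKI (log2 fold change -0.67 ± 0.05 (SE), adjusted p = 6.98e-11) and in Kushen (log2 fold change -0.80 ± 0.05 (SE), adjusted p = 7.36e-12). CKI lay above Kushen without overlap (log2 fold change 0.13 ± 0.05 (SE), adjusted p = 0.0307), a small difference that did not pass with DESeq2 (adjusted p = 0.0782) or when CKI replicate 2 or 3 or Kushen replicate 2 or 3 was left out (adjusted p = 0.0702 to 0.149).

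COX4I1, the ubiquitous form of the regulatory subunit that binds ATP, was at 194, 201 and 205 CPM in CKI, 202, 208 and 205 CPM in Kushen and 288, 272 and 272 CPM in Baituling, with all CKI and Kushen libraries below Baituling (log2 fold changes -0.47 and -0.44). COX5A and COX5B, which lie on the matrix side, were lower as well (-0.59 and -0.47 in CKI, -0.51 and -0.39 in Kushen). COX6B1, which lies on the intermembrane side of the dimer, was lower as well (-0.62 and -0.54). All 4 were lower under the 3 scalings. COX6A1, the general form of another subunit, passed in no comparison on the TMM scale (-0.02 in CKI against Baituling) and was higher against Baituling with library totals (0.27 in CKI, 0.18 in Kushen).

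COX7B, a small transmembrane subunit, was at 179, 173 and 171 CPM in CKI, 209, 177 and 184 CPM in Kushen and 129.9, 117 and 121 CPM in Baituling. Every CKI and Kushen library lay above every Baituling library, and this was the largest rise of any subunit with at least 5 CPM (log2 fold change 0.51 ± 0.06 (SE), adjusted p = 9.93e-08 in CKI, log2 fold change 0.63 ± 0.06 (SE), adjusted p = 5.14e-09 in Kushen). COX6C, also a transmembrane subunit, was at 238, 252 and 228 CPM in CKI, 266, 215 and 223 CPM in Kushen and 182, 176 and 189 CPM in Baituling and rose by 0.39 and 0.37. NDUFA4, first described in complex I and now placed in complex IV, was at 205, 202 and 199 CPM in CKI, 208, 191 and 203 CPM in Kushen and 173, 168 and 168 CPM in Baituling and rose by 0.25 and 0.24. All 3 were higher under each scaling in both comparisons, where library totals and upper quartile shifted the bulk of genes upward. COX7C, another small subunit and the most expressed of complex IV per kilobase (668 CPM per kilobase), was lower in CKI than in Kushen (log2 fold change -0.23 ± 0.04 (SE), adjusted p = 0.000416). It did not pass in Kushen against Baituling on the TMM scale (-0.05).

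Several complex IV subunits exist as pairs of a general and a tissue-restricted isoform, and in these cells the restricted forms were barely counted. COX6A2, the heart and muscle form of COX6A, had 0 counts in all 9 libraries. COX4I2, the lung form of COX4, had 1 count in Kushen replicate 1 and 2 in Baituling replicate 1 and 0 elsewhere. COX7A1, the muscle form of COX7A, had 1 to 6 counts per library, COX8C 0 to 5, and NDUFA4L2, a relative of NDUFA4 known to respond to low oxygen, 1 to 14. None of these 5 passed the filter, nor did ATP5MGL, a complex V relative of ATP5MG, with 1 count in 1 Kushen library.

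COX7B2, a testis-enriched relative of COX7B, did pass. It was at 11.3, 11.2 and 10.8 CPM in CKI, 15.4, 14.9 and 15.3 CPM in Kushen and 15.1, 15.8 and 15.9 CPM in Baituling, with every CKI library below every Kushen and Baituling library (log2 fold change -0.45 ± 0.07 (SE), adjusted p = 8.29e-05 against Kushen and log2 fold change -0.49 ± 0.08 (SE), adjusted p = 9.04e-06 against Baituling), and Kushen and Baituling overlapped. COX7B and COX7B2 thus lay on opposite sides in CKI against Baituling. Of the counts of the pair, COX7B2 took 6.01% ± 0.07 (SD, n = 3) in CKI, 7.45% ± 0.50 in Kushen and 11.3% ± 0.79 in Baituling, shares that no scaling changes and that do not overlap. COX6B2, the testis form of COX6B, had 26, 15 and 19 counts in CKI, 31, 22 and 40 in Kushen and 6, 8 and 3 in Baituling. It was higher than in Baituling in both (1.39 ± 0.44 and 2.10 ± 0.40), and COX6B1 gave 98.99% to 99.93% of the counts of the pair in the 9 libraries. COX7A2 and COX7A2L, the general form and a relative that takes part in supercomplexes, did not pass against Baituling on the TMM scale (-0.10 and 0.07 in CKI), and COX7A2 was lower in CKI than in Kushen (log2 fold change -0.17 ± 0.05 (SE), adjusted p = 0.0172), a call lost with library totals (adjusted p = 0.156) and without CKI replicate 1 (0.0565), CKI replicate 2 (0.0526) or Kushen replicate 1 (0.0714).

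Complex V held the largest falls, and 0 of its 17 tested genes were higher in either comparison against Baituling on the TMM scale. In CKI against Baituling 15 were lower (median -0.34), and in Kushen against Baituling 13 were lower (median -0.19). With library totals these were 6 lower and 4 higher in each. The 3 genes past the fold threshold in CKI against Baituling were ATP5MC2, ATP5F1D and ATP5MC1, and ATP5F1D was also past it in Kushen against Baituling.

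The c ring is built of identical c subunits, and 3 genes (ATP5MC1, ATP5MC2 and ATP5MC3) encode the same mature protein behind different mitochondrial import sequences. ATP5MC1 (ENSG00000159199) was at 65.9, 74.9 and 73.5 CPM in CKI, 75.5, 78.2 and 77.9 CPM in Kushen and 154, 144 and 142 CPM in Baituling. The Baituling libraries lay far above the other 6 (log2 fold change -1.04 ± 0.05 (SE), adjusted p = 6.26e-13 in CKI, log2 fold change -0.93 ± 0.05 (SE), adjusted p = 4.68e-12 in Kushen). ATP5MC2 (ENSG00000135390) was at 52.9, 58.1 and 59.8 CPM in CKI, 81.9, 76.2 and 79.5 CPM in Kushen and 139.5, 122 and 121 CPM in Baituling. Its 3 groups were apart, and it was the largest fall of any subunit in CKI against Baituling (log2 fold change -1.16 ± 0.06 (SE), adjusted p = 9.82e-13) and of any subunit in CKI against Kushen that passed (log2 fold change -0.48 ± 0.06 (SE), adjusted p = 5.07e-06). ATP5MC3 (ENSG00000154518) was at 169.7, 167 and 173 CPM in CKI, 163, 171 and 166 CPM in Kushen and 222, 201 and 198 CPM in Baituling. It fell least (log2 fold change -0.29 ± 0.05 (SE), adjusted p = 1.29e-05), and its fall in CKI against Baituling vanished with library totals (0.00085), while those of ATP5MC1 and ATP5MC2 did not.

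**Figure D3:**
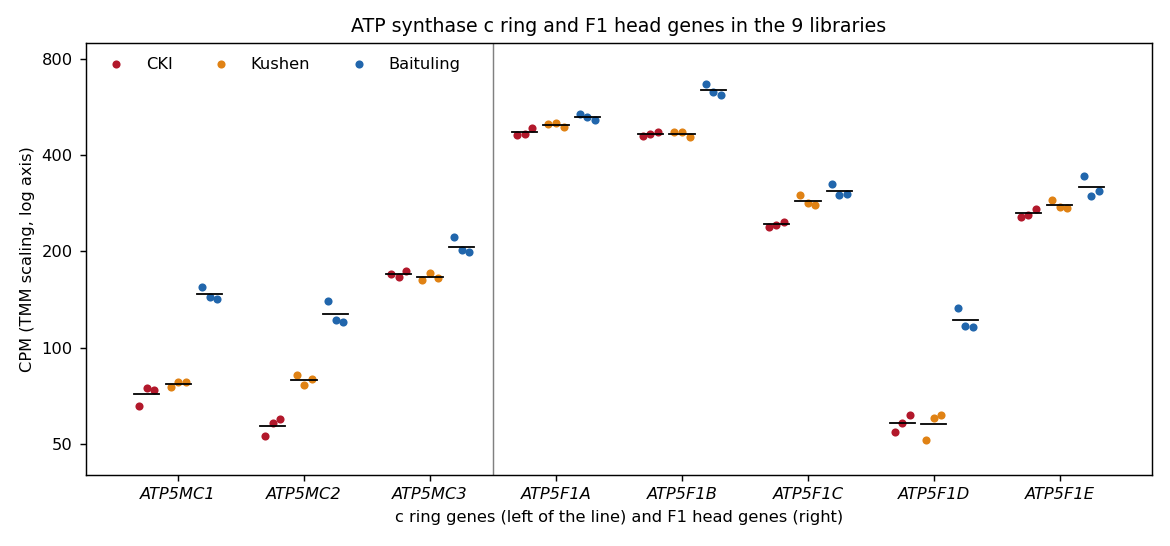
Level in CPM (TMM scaling, log axis) of the 3 c ring and 5 F1 head genes in each of the 9 libraries, with bars at the mean of 3. ATP5MC1, ATP5MC2 and ATP5F1D in Baituling stand well above both other treatments under all 3 scalings, and ATP5F1A differs little and turns to higher against Baituling with library totals.

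The make-up of the c ring counts therefore differed between treatments, in a measure that needs no scaling. Counts were not corrected for length, and the main transcripts of ATP5MC1, ATP5MC2 and ATP5MC3 have 646, 632 and 2587 bases. The shares thus compare treatments and do not rank the genes by transcript number. ATP5MC3 gave 57.0% ± 1.66 (SD, n = 3) of the counts of the 3 genes in CKI, 51.6% ± 0.91 in Kushen and 43.1% ± 0.08 in Baituling. ATP5MC1 gave 23.9% ± 1.09, 23.9% ± 0.28 and 30.5% ± 0.49. ATP5MC2 gave 19.1% ± 0.63, 24.5% ± 1.09 and 26.4% ± 0.56. The shares of ATP5MC3 did not overlap between any 2 groups, and the CKI shares of ATP5MC2 lay below all others. The same floor of 0.1 on an exact permutation p holds for these shares.

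**Figure D4:**
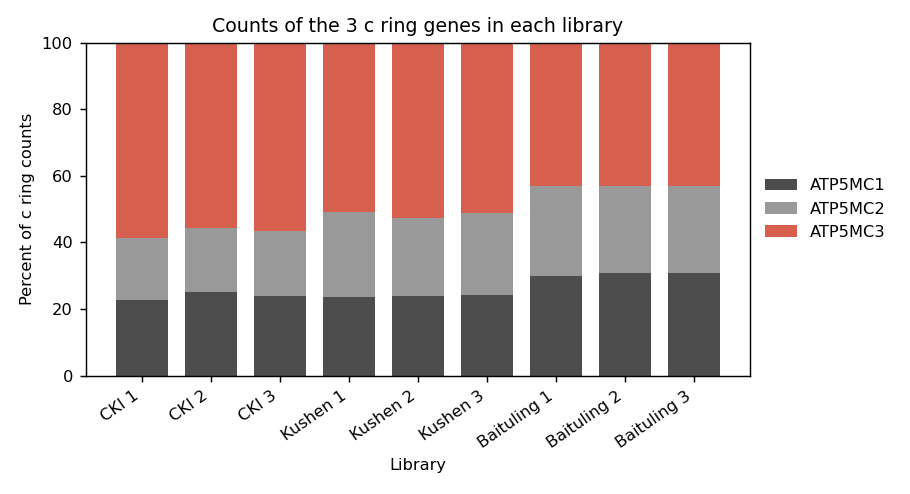
Percent of the counts of ATP5MC1, ATP5MC2 and ATP5MC3 that came from each gene, for each of the 9 libraries. The red part, ATP5MC3, covers 55.6% to 58.8% of the CKI bars, 50.8% to 52.6% of the Kushen bars and 43.0% to 43.1% of the Baituling bars.

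The F1 head, where ATP is made, is built from ATP5F1A to ATP5F1E, of which the A and B proteins form the catalytic ring and the D protein sits on the rotating central stalk. All 5 were lower in CKI than in Baituling on the TMM scale. ATP5F1D (ENSG00000099624) was at 54.3, 58.0 and 61.4 CPM in CKI, 51.5, 60.3 and 61.7 CPM in Kushen and 133, 117 and 116 CPM in Baituling. The CKI and Kushen libraries overlapped and lay below all Baituling libraries (log2 fold change -1.07 ± 0.07 (SE), adjusted p = 2.05e-11 in CKI, log2 fold change -1.08 ± 0.07 (SE), adjusted p = 2.86e-11 in Kushen). ATP5F1B was at 461, 466 and 472 CPM in CKI, 472, 474 and 456 CPM in Kushen and 667, 633 and 619 CPM in Baituling, and was lower in both (log2 fold changes -0.46 and -0.45). ATP5F1A, with ATP5F1B the most counted of the subunits, was at 462, 466 and 486 CPM in CKI, 499, 505 and 489.7 CPM in Kushen and 538, 528 and 516 CPM in Baituling and was lower in CKI (log2 fold change -0.16), a difference that turned to 0.13 with library totals (adjusted p = 0.00283). ATP5F1C was lower in CKI than in Kushen (log2 fold change -0.25 ± 0.04 (SE), adjusted p = 0.000169), with libraries at 239, 243 and 247 CPM in CKI, 301, 284 and 279.6 CPM in Kushen and 325, 301 and 302 CPM in Baituling. Its fall in Kushen against Baituling (log2 fold change -0.10 ± 0.04 (SE), adjusted p = 0.0452) was lost when any of 6 single libraries (all of CKI, Kushen replicates 2 and 3 and Baituling replicate 1) was left out (adjusted p up to 0.288, without Baituling replicate 1), and turned to 0.11 with library totals. As an unscaled share of F1 head counts, ATP5F1D made up 3.85% ± 0.15 (SD) in CKI, 3.64% ± 0.40 in Kushen and 6.36% ± 0.23 in Baituling.

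The 4 genes of the peripheral stalk, which holds the head still, were all lower in CKI than in Baituling (median -0.28), but with library totals only ATP5PD remained so. ATP5PD was at 104, 108 and 109 CPM in CKI, 143, 136 and 138 CPM in Kushen and 157, 138 and 145 CPM in Baituling. Every CKI library lay below every Kushen library (log2 fold change -0.38 ± 0.05 (SE), adjusted p = 5.60e-06), and Kushen and Baituling overlapped. Of the other membrane subunits, which shape the membrane around the dimer, 3 of 5 tested were lower in CKI than in Baituling, led by ATP5MF (-0.55), and ATP5MG, the most counted of them, passed in no comparison (-0.04 in CKI against Baituling).

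CKI and Kushen differed for fewer subunits than either did from Baituling. Of the 16 that were lower in CKI, the 8 that remained under all 3 scalings were ATP5F1C, ATP5MC2, ATP5PD, COX7B2, COX7C, NDUFB7, NDUFS5 and UQCRC2, and the 5 higher ones were COX8A, NDUFA11, NDUFB11, NDUFB9 and NDUFV2. The share that passed (25.6% in all) lay below that of all tested genes (39.8%). The count was unsteady, since leaving out CKI replicate 2 left 11 subunits and correcting for length and GC content gave 35.

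Fold changes against Baituling went with the GC content of the transcript. Across the 82 subunits the Spearman correlation of GC percent with log2 fold change was -0.44 in CKI against Baituling and -0.51 for Kushen against Baituling, and across 14164 tested genes it was -0.17 and -0.19. In CKI against Kushen it was 0.12 across subunits and 0.01 across genes. These describe points that share libraries and base composition, and genes are not replicates. The 27 subunits of highest GC (52.7% to 69.5%) had a median log2 fold change of -0.48 in CKI and -0.54 in Kushen against Baituling, with 22 lower and 3 higher in each. The 28 of lowest GC (34.6% to 44.9%) had medians of -0.17 and -0.05, with 16 lower and 5 higher, and 10 lower and 6 higher. Genes of the same GC range had medians of -0.14 and -0.16 in the high range and 0.15 and 0.14 in the low range. With an offset for length and GC, 56 subunits were lower and 13 higher in CKI against Baituling, and 46 lower and 14 higher in Kushen against Baituling. The cause of this relation was not tested.

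**Figure D5:**
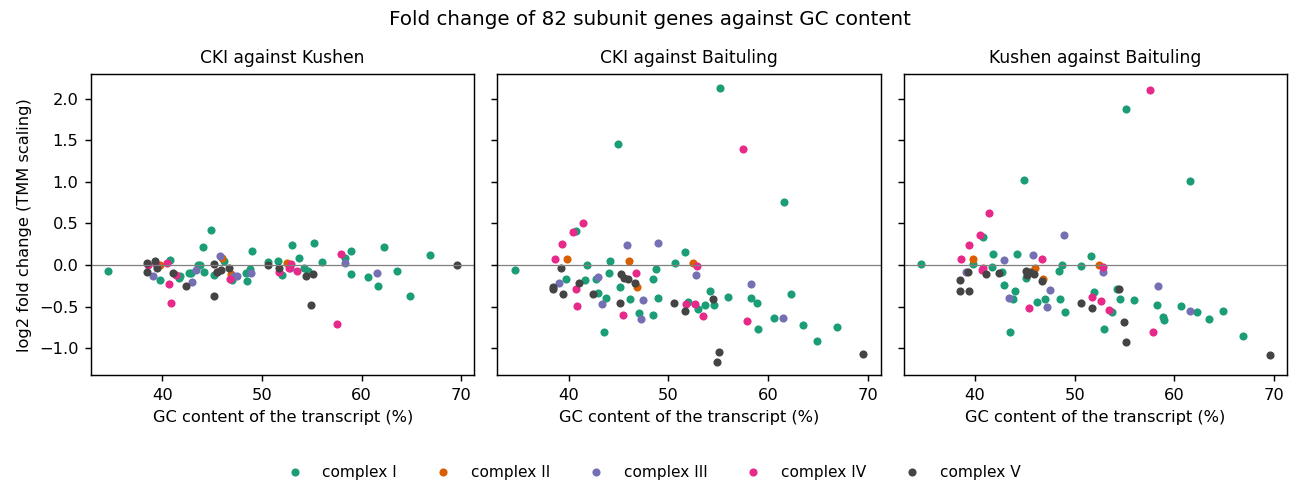
Log2 fold change (TMM scaling) of 82 subunits against the GC percent of their transcripts, coloured by complex. In both comparisons with Baituling the GC-rich subunits lie lower (Spearman -0.44 and -0.51), and CKI against Kushen shows 0.12.

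The counts of other mitochondrial lists are set beside the shares of all tested genes, which in CKI against Baituling were 37% lower and 39.1% higher, and in Kushen against Baituling 36.1% lower and 35.6% higher. Of 19 complex I assembly factors, 9 were lower (47.4%) and 6 higher (31.6%) in CKI against Baituling, from DMAC1 (log2 fold change -0.99) to NDUFAF1 (0.83), and 8 lower and 5 higher in Kushen against Baituling. For 27 complex IV assembly factors these counts were 15 lower (55.6%) and 4 higher (14.8%), and 14 lower and 3 higher, with COX16 (-0.59) and COX15 (0.45) at the ends in CKI. Complex III factors (6 genes) gave 4 lower and 0 higher, led by UQCC3 (-0.69), complex II factors (4) gave 2 and 2, led by SDHAF4 (-0.82), and complex V factors with the inhibitor (6) gave 2 and 2, with ATPAF2 at -0.71 and TMEM242 at 0.95. In CKI against Kushen, DMAC1 (-0.55) and UQCC2 (-0.46) were lower, and SDHAF2 (0.42) and NDUFAF1 (0.30) were higher. COX20 was higher too (0.75), at means of 2.06 CPM in CKI and 1.23 CPM in Kushen. Complex I factors gave 4 lower (21.1%) and 1 higher (5.26%) there, and complex IV factors 4 lower (14.8%) and 7 higher (25.9%). The shares of all genes were 20.2% lower and 19.6% higher. With library totals the complex I factors became 6 lower and 9 higher and the complex IV factors 6 lower and 11 higher in CKI against Baituling. Complex III factors then gave 1 lower and 3 higher, complex II factors 1 lower and 2 higher, and complex V factors 2 lower and 4 higher.

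Of 14 genes for cytochrome c and coenzyme Q synthesis, 6 were lower (42.9%; 37% of all genes) and 4 higher (28.6%; 39.1% of all genes) in CKI against Baituling. Cytochrome c itself (CYCS) was at 213, 215 and 222 CPM in CKI, 245, 247 and 236 CPM in Kushen and 335, 320 and 311 CPM in Baituling, and PDSS1, which makes the side chain of coenzyme Q, was past the fold threshold downward (-1.13 in CKI, -1.10 in Kushen). COQ5, a methyltransferase of the pathway, was higher in Kushen than in Baituling by 0.88. Of 13 tricarboxylic acid cycle genes, 8 were lower (61.5%) and 1 higher (7.69%) in the same comparison. SUCLG2, a subunit of the GTP-forming succinyl-CoA ligase, fell in every comparison (-0.71 in CKI against Kushen, -1.34 and -0.63 against Baituling), and IDH3A, a catalytic subunit of isocitrate dehydrogenase, rose in every one (0.27, 0.84 and 0.57). Among 7 tested carriers and channels 5 were lower (71.4%) and 1 higher (14.3%) in both comparisons against Baituling. SLC25A6 and SLC25A4, which both exchange ADP for ATP, went in opposite directions in CKI against Baituling (-1.10 and 0.52). With library totals the counts in CKI against Baituling were 4 lower and 7 higher for the coenzyme Q list, 3 lower and 6 higher for the cycle and 4 lower and 3 higher for the carriers.

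Of 10 tested nuclear regulators of respiratory genes, 5 were lower (37% of all genes) and 2 higher (39.1% of all genes) in CKI against Baituling, and 2 lower and 5 higher with library totals. PPARGC1A, a coactivator of mitochondrial biogenesis, had a mean of 17.3 CPM in CKI, 15.9 CPM in Kushen and 6.57 CPM in Baituling (log2 fold changes of 1.40 and 1.27 against Baituling), while its relative PPRC1 went from 45.1 and 43.7 CPM to 81.5 CPM (-0.85 and -0.90). Of the factors whose letters were searched for, NRF1 had a mean of 16.1 CPM in CKI, 15.8 CPM in Kushen and 22.9 CPM in Baituling, and GABPA 45.1, 45.0 and 32.2 CPM. GABPB1, the partner of GABPA, had means of 20.01, 15.2 and 22.9 CPM, and was lower than in Baituling in CKI (log2 fold change -0.19) and in Kushen (-0.59) and higher in CKI against Kushen (0.39). Of 13 genes for the copying and transcription of mitochondrial DNA, 6 were lower and 6 higher (46.2% each) in CKI against Baituling (2 and 7 with library totals), with SSBP1, a single-strand binding protein, at -0.62 and POLG2, a polymerase subunit, at 0.85.

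Marker genes also moved with the treatments. The summed level of 8 mesenchymal and basal markers was 3593 to 3737 CPM in CKI, 4578 to 4620.2 CPM in Kushen and 8272 to 8565 CPM in Baituling, and 7 of the 8 were lower in CKI than in Baituling. That of 9 luminal markers, mostly from KRT8 and KRT18, was 704 to 758 CPM, 831 to 858 CPM and 1689 to 1818 CPM. That of 8 leukocyte and fibroblast markers, mostly from COL1A1, was 33.7 to 39.6 CPM, 21.7 to 25.9 CPM and 14.4 to 18.6 CPM. Their part in the subunit results was not tested.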

How the data were processed

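Libraries made from total RNA were sequenced as unstranded read pairs, 9 in all from MDA-MB-231 cells and 3 per treatment. The authors deposited counts per gene (whole numbers, not normalized). The submitters' processing notes name Trim Galore 0.3.7, STAR 2.5.3a, edgeR and the genome build hg19, and the counting program and annotation are not given in the sources used here. The library preparation did not keep strand, so reads of a gene and of an overlapping gene on the other strand cannot be told apart, which touches 21 of the 82 tested subunits, and 19 share exon bases with a gene on the same strand.

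The table held 24566 rows, of which 222 repeated an identical row and were used once, leaving 24344 genes. Symbols and transcript lengths came from GENCODE v44 lifted to GRCh37 (24224 genes) and RefSeq (99), and 21 stayed unnamed. Genes with low counts were removed with filterByExpr (minimum count 10, minimum total 15), which left 14195. One edgeR 4.0.16 quasi-likelihood model (R 4.3.3, TMM scaling, group as the only term) was fitted to all 9 libraries, with p-values adjusted by Benjamini-Hochberg over the tested genes. SE is the absolute log2 fold change divided by the square root of the F statistic. The common biological coefficient of variation was 4.53%. Alternatives were library totals, upper-quartile scaling, DESeq2 1.42.0, limma voom 3.58.1, other filters, 2 groups at a time, a replicate block, a length and GC offset and leaving out each library. CPM per kilobase used the transcript length. Figures were drawn with matplotlib 3.10.9 in Python 3.11.15.

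The members and lists were chosen with earlier results of these data known. Genes named with values were, by rule, the passing member with the largest rise and fall in each complex and comparison at a mean of at least 5 CPM, members past the fold threshold, the catalytic core genes, the isoform pairs, the members that were not tested, and the largest passing rise and fall of each other list. ATP5MF, ATP5MG, ATP5PD, COX6C, COX7C, NDUFA5, NDUFA8, NDUFA9, NDUFB1, NDUFB10, NDUFS5, UQCRHL, NDUFV3, CYCS, NRF1 and GABPA were named after their values were seen. The 2 readthrough genes were left out. Some single-gene results are not reported here.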

Additional observations from a re-analysis of the deposited data

How the results depend on the processing

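With library totals the median log2 fold change of the subunits was 0.0095 for CKI against Kushen, 0.00037 for CKI against Baituling and 0.026 for Kushen against Baituling. The medians of all genes tested were then 0.083, 0.32 and 0.23. Upper-quartile scaling gave -0.22 for CKI against Baituling and -0.12 for Kushen against Baituling. Library totals also turned the sign of 13 named results from negative to positive, each of them passing before, after or both. With library totals ATP5MC3, SDHC and UQCRC1 did not pass. In CKI against Baituling these were ATP5F1A (0.13), ATP5MC3 (0.00085), COX6A1 (0.27), COX7A2 (0.19), SDHC (0.018), UQCRC1 (0.063) and UQCRC2 (0.15), and in Kushen against Baituling ATP5F1A (0.13), ATP5F1C (0.11), COX6A1 (0.18), COX7B2 (0.18), SDHB (0.17) and SDHC (0.048). The length and GC offset turned NDUFS1 to -0.29 for CKI against Baituling, NDUFS1 to -0.14 and COX6A1 to 0.099 for Kushen against Baituling, and raised the subunits that passed in CKI against Kushen from 21 to 35. Counting every subunit past the adjusted p alone gave 21, 66 and 57 in the 3 comparisons in place of 0, 6 and 5 past the fold threshold. Requiring at least 10 counts in every library left 3 past it in each comparison with Baituling. NDUFA7 and COX6B2, with libraries under 10 counts, were then not tested. The lower ones in CKI against Baituling also went from 3 to 2. The cause of the other changes was not tested.

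When 1 library was left out, 11 to 25 subunits passed in CKI against Kushen (11 without CKI replicate 2), while CKI against Baituling gave 64 to 68 and Kushen against Baituling gave 51 to 60. The medians were -0.08 to -0.04, -0.33 to -0.26 and -0.23 to -0.15, and 0, 5 to 7 and 3 to 5 subunits were past the fold threshold (3 without Baituling replicate 1). After removal of group means, same-numbered libraries of different groups correlated at -0.11 to 0.16. The labels do not say whether a number marks a shared culture or batch, and this was not tested. With the replicate block 19, 66 and 55 subunits passed. NDUFA7, NDUFA13, COX6B2 and the 6 subunits that were not tested had few counts, and the cause of this was not tested.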
